A study of Mus musculus with 24 samples.

Results

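The comparison described here is that of day 3 with day 0 in the mouse embryonic stem cell line OCF2ΔYY1, read from a viewpoint at the wild-type Oct4 allele on chromosome 17. Its 4 libraries, 2 per day, were chosen by their labels from the 24 of the series, which covers 2 lines and 3 viewpoints. The assay was paired-end 4C sequencing, which counts the DNA fragments found ligated to 1 chosen fragment after formaldehyde crosslinking and HindIII digestion. The series title places the work at the onset of differentiation. All 4 libraries came from cells of genotype OCF2ΔYY1, strain C57Bl/6 x 129/Sv, at passage 7. The labels do not name the treatment that separates day 0 from day 3, and they do not say whether the line is 1 clone. The replicates are called biological. The labels do not spell out what the Δ in a line's name stands for, and no line without such a mark was analysed here. Titles of other libraries of this line name a viewpoint Mut_YY1 on chromosome 11, beside the wild-type Oct4 viewpoint read here. These titles do not state that the YY1 protein was lost. The OctSox line (OCF2ΔOCT4/SOX2) at the same viewpoint, passage and days, with 4 libraries, serves as the only comparison.

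The gene Pou5f1 encodes Oct4, on which embryonic stem cells depend to remain pluripotent, and it is switched off as they differentiate. YY1 is a zinc finger protein that binds enhancers and promoters and takes part in joining them into loops. In a 4C profile, contacts fall off steeply with distance along the chromosome, and a fragment that stands above this decline is read as a preferred contact of the viewpoint.

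The viewpoint lies by its name at the Oct4 gene, so the stretch of 250 bases before the start of Pou5f1 is shown as the reference sequence of that promoter. It is from RefSeq, build GRCm38.p6, plus strand, and capitals mark the GC box core GGGCGG and the nuclear receptor half-site AGGTCA.
Pou5f1: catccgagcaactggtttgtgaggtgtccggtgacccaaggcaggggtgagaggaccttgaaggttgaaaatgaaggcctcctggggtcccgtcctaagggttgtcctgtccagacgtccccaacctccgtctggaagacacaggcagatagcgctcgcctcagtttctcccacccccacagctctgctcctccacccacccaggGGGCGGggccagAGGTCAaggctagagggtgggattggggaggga
Each capitalised motif occurs 1 time in this window on either strand, and the matches do not overlap. GGGCGG was found in 32.7% and AGGTCA in 14.0% of 32851 RefSeq promoters of the same length. The HindIII site AAGCTT, at which the assay cuts, is not among these letters and was found in 6.22% of the promoters. The letters CCATNTT, the core of a YY1 site, are not in the window either and were found in 12.4% of promoters. The window is given in another build than the contact data and was not placed on a fragment. In the order of protein-coding genes along chromosome 17 in RefSeq, Pou5f1 is followed on the side of higher coordinates by Tcf19, Cchcr1, Psors1c2 and Cdsn. On the side of lower coordinates it is preceded by H2-Q10, H2-Q7, H2-Q6 and H2-Q4, which belong to the class I major histocompatibility genes. No gene is assigned to a fragment below.

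The authors' files hold a read count for each of 25150 HindIII fragments of chromosome 17. Total counts were 341882, 62595, 68222 and 16297 for day 0 replicates 1 and 2 and day 3 replicates 1 and 2, an order kept in every set of 4 values below. Outside the viewpoint fragment and its 2 neighbours 333751, 60962, 51489 and 7090 counts remained, over 10308, 4877, 6562 and 943 fragments. Day 3 replicate 2 is thus by far the shallowest library, and a count of 0 in it allows a share of up to 0.0423% of those counts, against 0.000899% in day 0 replicate 1. Such limits cover counting error only, since the sources used here state no correction for PCR duplicates. The day 3 replicates also differed more from each other than the day 0 replicates. Over the fragments tested below, the median absolute log2 difference between replicates was 3.44 at day 3 and 0.72 at day 0. Many of these fragments had no count in day 3 replicate 2, and the part of its depth in this difference was not tested.

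In the 4 libraries of the YY1 line the fragments at the viewpoint itself took a larger part of the library at day 3. No label gives the viewpoint's position, so the fragment that led in counts summed over all libraries, chr17:35633988-35641095 (mm9, 7108 bases), was taken as the viewpoint. That fragment held 5862, 1458, 9231 and 7659 counts, which are 1.71%, 2.33%, 13.5% and 47.0% of all counts. Both day 3 shares lay above both day 0 shares, and they also lay far from each other. At day 0 another fragment, chr17:35643155-35652106, held more counts (12382 and 2624). The choice of the viewpoint fragment thus rested on its day 3 counts, so a higher share at day 3 was built into it. In the OctSox line the viewpoint fragment held 70.9%, 8.58%, 32.6% and 52.7%, where a day 0 library was the highest and the days overlapped. Reads on the viewpoint fragment and on those next to it can come from uncut or self-ligated DNA as well as from contacts, and their part here was not tested.

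The neighbour on the side of higher coordinates, chr17:35641102-35643148, held 0.338%, 0.0543%, 10.4% and 9.04% of all counts. The neighbour on the other side, chr17:35627532-35633981, held 0.326%, 0.225%, 0.594% and 0.460%. In the OctSox line the higher neighbour held 0.0775%, 0.0343%, 1.86% and 4.70%, also higher at day 3 without overlap. The lower neighbour held 1.46%, 0.103%, 0.688% and 0.396% there, with overlap. In the YY1 line the days did not overlap in the viewpoint fragment or in either neighbour. With 2 libraries against 2 the exact two-sided permutation test has 6 arrangements and cannot go below p = 0.333, the value for each of the 3. For the viewpoint fragment that test used the counts by which it was picked, so it gives no separate support. Means were 2.02% ± 0.435 and 30.3% ± 23.7 at the viewpoint fragment (SD, n = 2 each), and 0.196% ± 0.200 and 9.72% ± 0.965 at the higher neighbour. The 2 neighbours did not keep a fixed ratio to the viewpoint fragment. The higher neighbour had 19.7%, 2.33%, 76.9% and 19.2% of its count, and the lower neighbour 19.0%, 9.67%, 4.39% and 0.979%. The first fragment beyond the higher neighbour, chr17:35643155-35652106, held 211% and 180% of the viewpoint's count at day 0 and 19.6% and 9.47% at day 3, so at day 0 the highest count lay there and at day 3 on the viewpoint fragment.

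**Figure D1:**
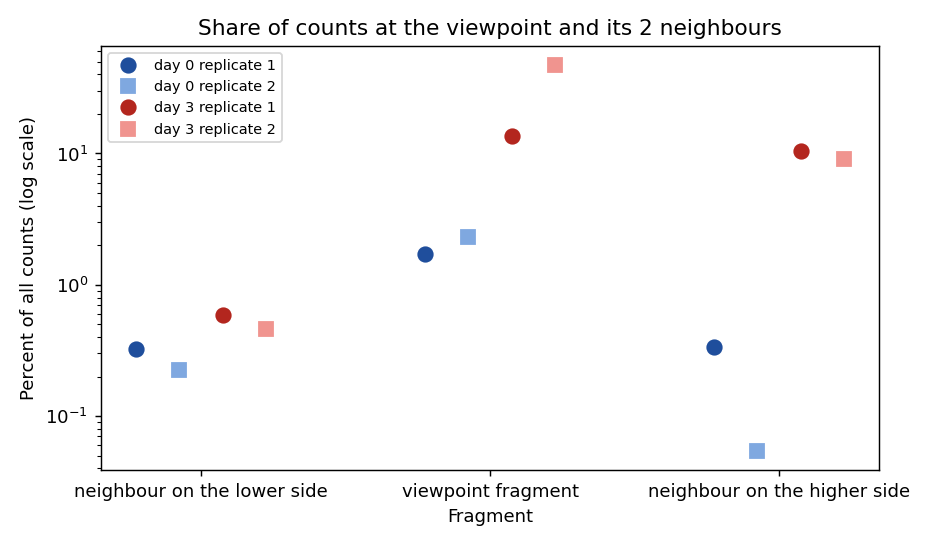
Percent of all counts, on a log axis, at the viewpoint fragment and the fragment on either side, with 1 point per library. In each of the 3 fragments both day 3 libraries lie above both day 0 libraries, and at the viewpoint the day 3 libraries stand at 13.5% and 47.0%.

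As shares of the counts outside the viewpoint, far contacts made up more of the profile at day 3 and contacts at 0.1 to 1 Mb made up less, but the size and the sign of these changes depended on how counts were weighed. Counts at the viewpoint fragment and its 2 neighbours were left out, and distance is that between fragment midpoints. Beyond 20 Mb the libraries held 14.0%, 14.7%, 25.4% and 23.1%, a change of 9.94 percentage points. At 0.1 to 1 Mb they held 32.6%, 30.9%, 25.2% and 23.1%, a change of -7.58 points. Neither band overlapped between days, and the exact permutation p was 0.333 in both, the smallest possible, or 0.556 when adjusted over 5 bands. Counting each touched fragment once in place of its counts turned both changes, to -0.366 and 4.18 points, and capping counts at 20 per fragment gave 1.36 and 7.61. These measures also depend on library depth, which was unequal, and the part of depth in the turned signs was not tested. With nothing left out at the viewpoint both changes were 0.646 and -16.4 points, in the same order. At 1 to 5 Mb the shares were 9.41%, 9.63%, 9.30% and 8.15%, again without overlap, but day 3 replicate 1 lay within 0.108 points of day 0 replicate 1.

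The other bands overlapped between days because the day 3 replicates lay on opposite sides of the day 0 pair. Up to 0.1 Mb the shares were 21.5%, 22.1%, 13.1% and 24.9%, and at 5 to 20 Mb they were 22.6%, 22.6%, 27.0% and 20.7% (exact permutation p = 1 in both). The day 0 replicates differed by at most 1.60 points in any band, while the day 3 replicates differed by up to 11.8 points.

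**Figure D2:**
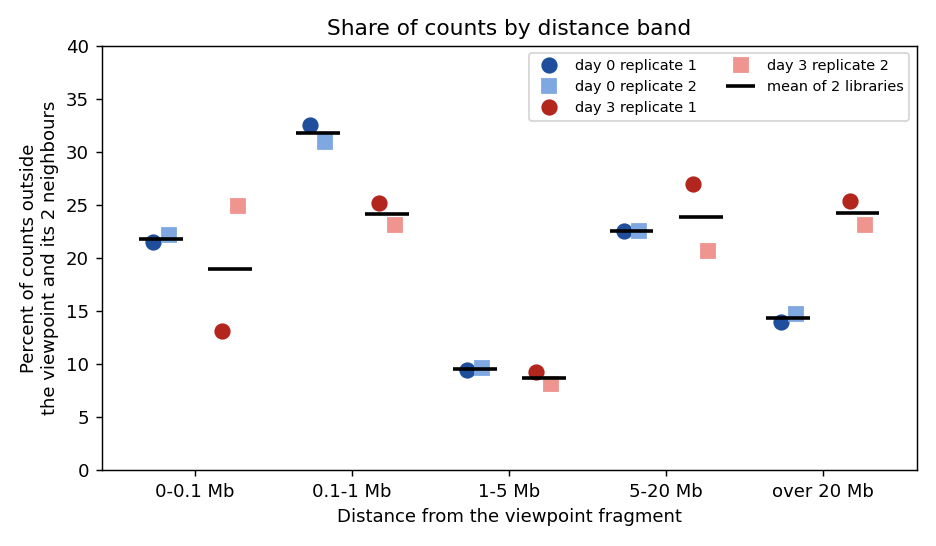
Percent of counts outside the viewpoint and its 2 neighbours in 5 bands of distance, with 1 point per library and bars at the mean of 2 libraries. Beyond 20 Mb the day 3 libraries (25.4% and 23.1%) lie above those of day 0 (14.0% and 14.7%), while up to 0.1 Mb they lie on either side of them.

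Beyond 20 Mb the day 3 libraries lay above day 0 on both sides of the viewpoint. On the side of lower coordinates the shares were 3.23%, 3.10%, 5.95% and 5.98%, and on the side of higher coordinates 10.7%, 11.6%, 19.4% and 17.2%. At 0.1 to 1 Mb the higher side held 21.1%, 20.5%, 14.7% and 17.1%, without overlap between days, and the lower side 11.4%, 10.4%, 10.5% and 6.01%, with overlap. Between 1 and 5 Mb the higher side held 2.50%, 3.31%, 1.97% and 1.50%, lower at day 3 without overlap, while the lower side overlapped.

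The far counts of the 2 day 3 libraries were spread very differently. In day 3 replicate 1, 3111 fragments beyond 20 Mb had a count, the 529 largest held 50% of the counts there, and the 10 largest held 4.87%. In day 3 replicate 2 only 349 had a count, the 49 largest held 50% of them and the 10 largest held 19.3%. At day 0 the 658 and 311 largest held 50% of the far counts. Of the far fragments seen in day 3 replicate 2, 47.6% were also seen in replicate 1. The share the other way was 5.34%, which the small number seen in replicate 2 keeps low. At day 0, 68.7% of those in the shallower replicate 2 were seen in replicate 1, and 26.6% the other way.

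The libraries were also set at an equal depth of 7090 counts, the number in the shallowest, by the expected number of fragments with at least 1 count. Beyond 20 Mb that gave 5.34%, 4.63%, 8.02% and 2.39% of the 14620 fragments. By this measure day 3 replicate 1 touched the most far fragments and day 3 replicate 2 the fewest, although both held a larger share of far counts than day 0. Asking for at least 2 counts gave 1.03%, 1.49%, 2.51% and 1.48% beyond 20 Mb. Day 3 replicate 1 was again the highest, but day 0 replicate 1 was then the lowest. Over all distances the values were 9.65%, 8.20%, 11.3% and 3.75%. At 0.1 to 1 Mb they were 52.3%, 46.0%, 50.9% and 30.3%, so the lower share of counts there at day 3 went with fewer touched fragments in replicate 2 and not in replicate 1.

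The OctSox line gave day changes of -2.63, -4.82, -1.70, 2.17 and 6.98 points in the 5 bands from near to far, against -2.83, -7.58, -0.795, 1.26 and 9.94 in the YY1 line. The difference between the lines in the change beyond 20 Mb was 2.96 points. Permuting the days within each line gave an exact p of 0.722 for it and of 0.722 or more in every band, where 36 arrangements allow no p below 0.0556. No difference between the lines in these changes was detectable with 2 libraries per group.

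Near the viewpoint the profile was one-sided in all 4 libraries. Of the counts within 1 Mb, 21.3%, 19.8%, 27.5% and 12.7% lay on the side of lower coordinates, and of those within 0.1 Mb only 0.393%, 0.378%, 0.548% and 0.283%. The first set overlaps between days, with the day 3 replicates on either side of day 0, as does the second (exact permutation p = 1 in both). The near side of lower coordinates was largely empty. Of its 23 fragments within 0.1 Mb, 17 had no count in any of the 4 libraries, nor in any of the 4 OctSox libraries, while on the higher side each of 23 fragments had a count in at least 1 library. A run of 10 such fragments covers chr17:35583177-35619814, 36.6 kb that begin 14.2 kb from the viewpoint fragment. A further run of 6 empty fragments covers chr17:35525729-35554162, with 1 count in all in the OctSox line. Which fragments the authors' alignment could reach is not stated, and its part in these runs was not tested. Farther out, at 1 to 5 Mb, the imbalance was the other way round. There 55.9% of 1047 fragments on the higher side had no count in the 4 libraries, against 21.5% of 968 on the lower side.

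**Figure D3:**
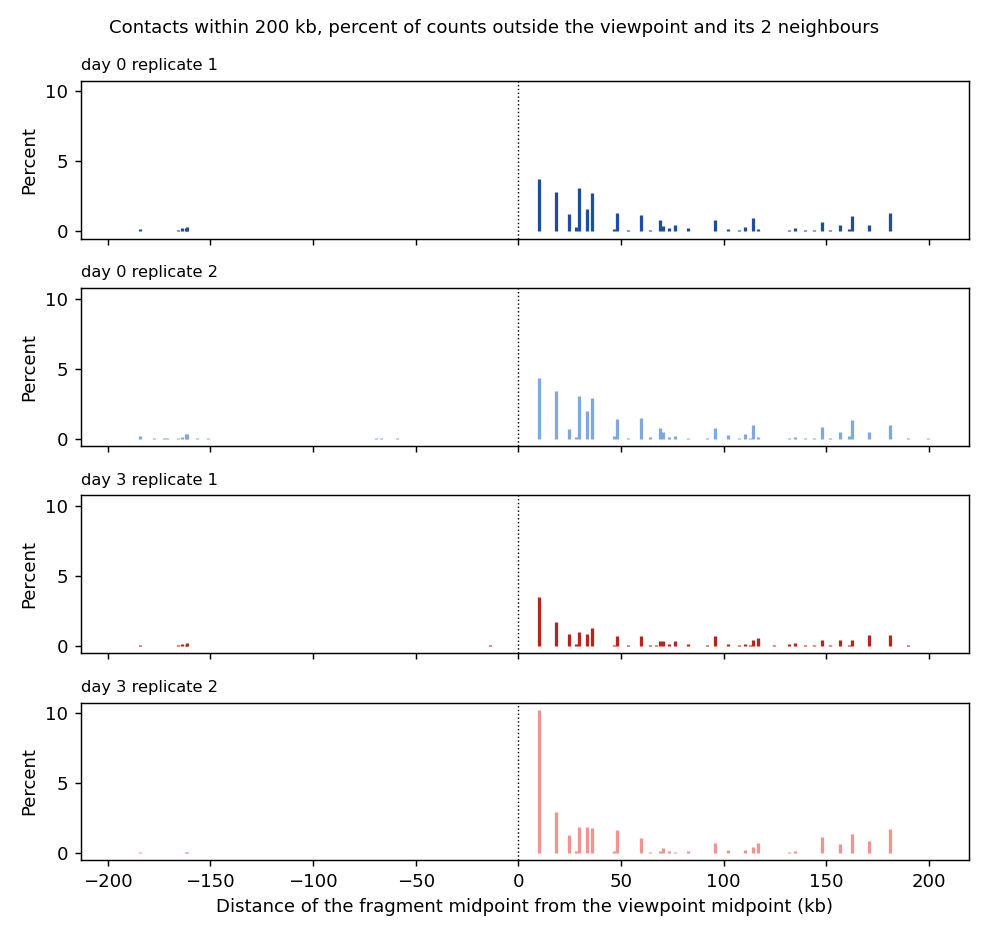
Percent of counts outside the viewpoint and its 2 neighbours for each fragment within 200 kb, against its distance in kb, with 1 panel per library and the viewpoint at the dotted line. Contacts lie almost wholly on the side of higher coordinates in all 4 libraries, and the first fragment on that side reaches 10.2% in day 3 replicate 2.

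The 12 most contacted fragments, by the mean share over the 4 libraries, all lay on the side of higher coordinates and began between 2.06 and 213 kb from the viewpoint. The leading one, chr17:35643155-35652106, adjoins the higher neighbour and held 3.71%, 4.30%, 3.52% and 10.2% of the counts outside the viewpoint. It had the largest count outside the viewpoint fragment and its neighbours in each of the 4 libraries, and its days overlap. The second, chr17:35652113-35659414 at 11.02 kb, held 2.82%, 3.39%, 1.69% and 2.93% and also overlapped. The fragment chr17:35659421-35664740 at 18.3 kb held 1.27%, 0.705%, 0.878% and 1.31%, again with overlap.

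Between 20 and 40 kb on the higher side both day 3 libraries lay below day 0. This step of 6 fragments held 16.8%, 16.5%, 10.7% and 14.6% of all counts within 1 Mb. The next step, 40 to 100 kb, held 10.8%, 10.5%, 9.71% and 9.72%, also lower at day 3 without overlap. In the step up to 20 kb the shares were 12.1%, 14.5%, 13.6% and 27.4%, and in that from 100 to 200 kb 12.4%, 12.2%, 13.0% and 15.7%. The days overlapped in the first of these and not in the second, where day 3 was the higher. From 200 to 500 kb the shares were 24.6%, 24.3%, 23.7% and 16.3%, without overlap, but with day 3 replicate 1 close to day 0. The lower share at 20 to 40 kb was therefore present also when counts beyond 1 Mb were left out of the total. In day 3 replicate 2 that total included 27.4% in the step up to 20 kb. The part of this 27.4% in the lower share at 20 to 40 kb was not tested.

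**Figure D4:**
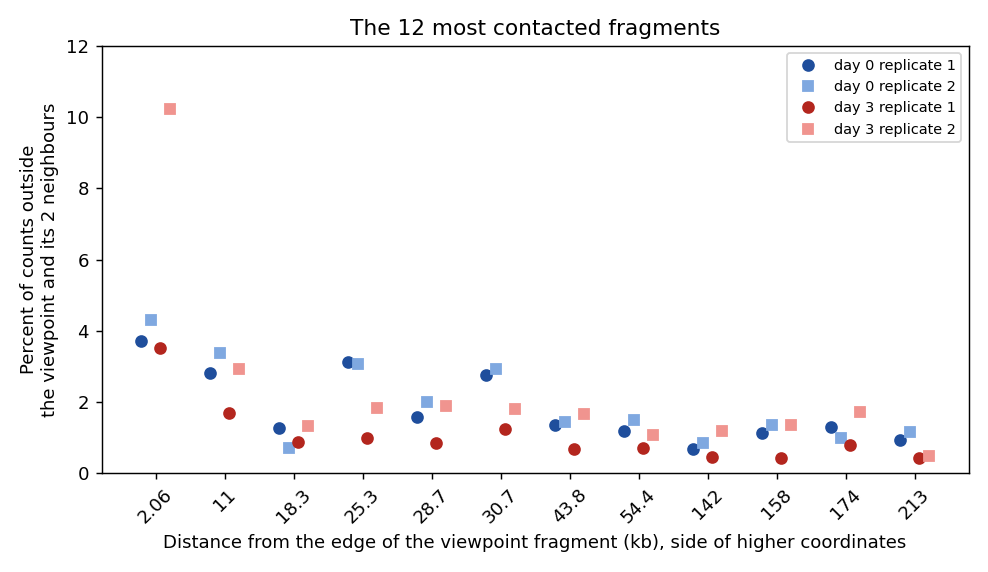
Percent of counts outside the viewpoint and its 2 neighbours for the 12 most contacted fragments, ordered by their distance in kb, with 1 point per library. At 25.3 kb and 30.7 kb both day 3 libraries lie below both day 0 libraries, and at 2.06 kb the value of 10.2% in day 3 replicate 2 stands apart.

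In this step lie the 2 fragments that edgeR called by its quasi-likelihood test at a Benjamini-Hochberg adjusted p under 0.05. They are 0.279% of the 716 fragments with enough counts to be tested. The first, chr17:35666366-35668007 at 25.3 kb, had 10442, 1863, 508 and 130 counts, or 3.13%, 3.06%, 0.987% and 1.83%. Both day 3 libraries lay below both day 0 libraries, with means of 3.09% ± 0.0514 and 1.41% ± 0.599 (SD, n = 2 each). On the log2 scale edgeR gave -1.42 ± 0.25 (SE; adjusted p 2.0e-05).

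The second, chr17:35671799-35674740 at 30.7 kb, had 9157, 1781, 641 and 127 counts, or 2.74%, 2.92%, 1.24% and 1.79%. Its days did not overlap either, and edgeR gave it -1.15 ± 0.26 on the log2 scale (SE; adjusted p 0.00294). Between them lies chr17:35669786-35671792 at 28.7 kb, which had 1.57%, 2.00%, 0.833% and 1.88%. There the days overlapped, and its log2 fold change was -0.70 ± 0.31 (SE; edgeR adjusted p 0.383). In the OctSox line the called fragments had edgeR log2 fold changes of -0.52 ± 1.06 and -0.84 ± 1.06 (SE). The SE is the fold change over the root of the test's F statistic, so it follows from the test.

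Neither call was made by every analysis. DESeq2 gave log2 fold changes of -1.30 and -1.03 with adjusted p of 0.815 and 0.998, and edgeR scaled by total counts gave adjusted p of 0.322 and 0.370. With the distance trend of each library removed the fold changes were -0.86 and -0.59 (edgeR adjusted p 0.997 each), and without either day 0 library the second had larger fold changes of -1.31 and -2.12 that did not pass (edgeR adjusted p 0.0612 and 0.410).

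The other leading fragments did not pass. The fragment chr17:35684940-35686513 at 43.8 kb held 1.35%, 1.42%, 0.680% and 1.66%, and chr17:35695529-35698977 at 54.4 kb held 1.19%, 1.49%, 0.703% and 1.07%. Only the second of these 2 separated the days, and their log2 fold changes were -0.56 ± 0.34 and -0.85 ± 0.37 (SE; edgeR adjusted p 0.789 and 0.383). Farther out, chr17:35782941-35788200 at 142 kb held 0.663%, 0.833%, 0.451% and 1.17%, and chr17:35798798-35801532 at 158 kb held 1.13%, 1.34%, 0.427% and 1.34%. In both of these fragments the day 3 replicates lay far apart and overlapped day 0. The same was true of chr17:35814628-35822271 at 174 kb, with 1.29%, 0.996%, 0.792% and 1.71%.

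Among fragments that were not called, 5 had the smallest p, each with an edgeR adjusted p of 0.216. On the near higher side, chr17:35705276-35707671 at 64.2 kb held 0.786%, 0.745%, 0.320% and 0.155%, a log2 fold change of -1.78 ± 0.57 (SE). The fragment chr17:35854242-35856075 at 213 kb held 0.941%, 1.15%, 0.416% and 0.480% (-1.44 ± 0.46), and chr17:35988584-35989405 at 347 kb held 0.887%, 0.951%, 0.449% and 0.240% (-1.53 ± 0.50). Each of these 3 had both day 3 libraries below day 0. In the OctSox line their log2 fold changes were 0.26, 0.92 and 0.79 with SEs of 1.14, 1.24 and 1.21, and the interaction test of the difference in day effect between the lines did not call them (edgeR adjusted p 0.998 each).

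The remaining 2 were far fragments without a count at day 0, which entered the test only through their day 3 counts, so a difference between the days was built into their selection. The fragment chr17:59312969-59315149, 23.7 Mb away, had 0, 0, 10 and 11 counts, and chr17:69187422-69189412, 33.5 Mb away, had 0, 0, 13 and 9. From pooled counts, with a floor of 3 counts over the day 0 group, they were at least 47.2-fold and 49.4-fold higher at day 3, bounds that cover counting error only. DESeq2 called both (adjusted p 0.00785 each). It made 4 calls in all, 0.559% of 716, and all of them were higher at day 3. The others were chr17:11029472-11030455 with 1, 0, 16 and 8 counts (DESeq2 adjusted p 0.0128) and chr17:31450420-31454545 with 13, 0, 14 and 23 counts (DESeq2 adjusted p 0.0156). These 2 also entered the test only through their day 3 counts, so the direction of all 4 calls was tied to their selection. The 4 lay on both sides of the viewpoint, 3 of them more than 20 Mb away, and edgeR gave each an adjusted p of 0.216 or 0.225. The tools thus called different fragments.

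Over all 716 tested fragments, 61 had an unadjusted edgeR p under 0.05, 42 lower and 19 higher at day 3. Fold changes were below 0 for 442 and above 0 for 274, with a median of -0.35. These splits moved with the analysis. With the distance trend removed 364 were below and 352 above 0, with a median of -0.02, and 27 were lower and 32 higher at an unadjusted edgeR p under 0.05. DESeq2 had 29 lower and 28 higher at that level. Both day 3 shares lay below both day 0 shares in 27.8% of fragments and above them in 10.8%. Many of the tested fragments had no count in day 3 replicate 2, where a 0 allows a share of up to 0.0423%. Such a 0 lies below any day 0 share above 0, so this split, also by distance, depends on depth as well. On the higher side within 0.1 Mb 19 fragments were tested, 17 had a fold change below 0, and the median was -0.67. At 0.1 to 1 Mb 125 of 168 were below 0, with a median of -0.55. At 1 to 5 Mb on the higher side 27 of 32 were below 0, with a median of -1.40, and 19 of the 32 had both day 3 shares below day 0. Beyond 20 Mb 39 of the 69 tested fragments were above 0, with a median of 0.35. Of the 14620 fragments at that distance these 69 are the few with enough counts to be tested.

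**Figure D5:**
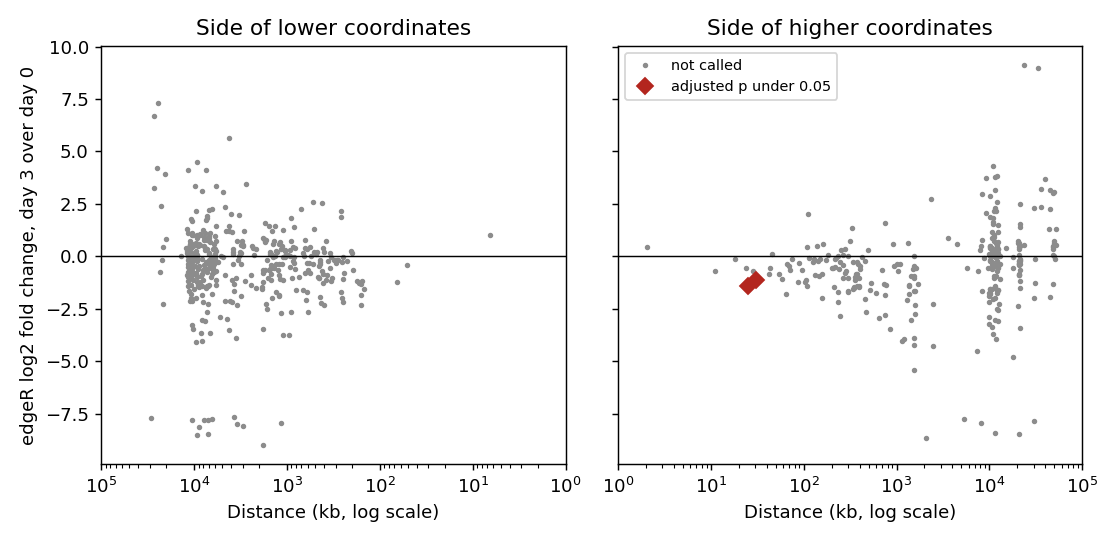
EdgeR log2 fold change, day 3 over day 0, of the 716 tested fragments against distance in kb on a log axis, with the sides of lower and higher coordinates in separate panels. The 2 called fragments (-1.42 and -1.15) lie at 25.3 kb and 30.7 kb on the higher side, where 17 of the 19 tested fragments within 0.1 Mb are below 0.

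The most contacted fragments beyond 1 Mb each rested on 1 library. The fragment chr17:94007735-94010179, 58.4 Mb away, had 0, 0, 0 and 68 counts, which are 0.959% of the counts in day 3 replicate 2. Beyond 20 Mb, chr17:74466696-74470251 had 9, 0, 0 and 40 counts and chr17:56934478-56944228 had 12, 0, 258 and 0. Nearer, chr17:25840881-25852985 at 9.78 Mb had 108, 9, 9 and 49 counts, and chr17:32096208-32100503 at 3.53 Mb had 32, 1, 4 and 60. In each of these fragments the other day 3 library held 9 counts or fewer.

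Summing fragments in windows lowered the spread between replicates, and edgeR called no window. The dispersion fitted by edgeR was 0.724 for fragments, 0.399 for 100 kb windows and 0.106 for 1 Mb windows, all centred on the viewpoint. EdgeR called 0 of 631 windows of 100 kb, 0% of those tested, while 34 had an unadjusted p under 0.05, and DESeq2 called 0 too. The smallest p belonged to windows centred 57.3 Mb and 1.6 Mb away on the higher side. The far one had only 1, 0, 11 and 4 counts. The window at 1.6 Mb had 0.607%, 0.622%, 0.237% and 0.0564%, with a log2 fold change of -2.39 ± 0.67 (SE; edgeR adjusted p 0.652). Next came the window at 0.4 Mb on the higher side with 4.52%, 4.29%, 3.05% and 1.00% (-1.54 ± 0.46, adjusted p 0.768).

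Of the 93 windows of 1 Mb edgeR called 0, 0% of those tested, while 11 had an unadjusted p under 0.05. DESeq2 called 3, or 3.23%. The first was centred 2 Mb away on the higher side and held 1.36%, 1.68%, 0.872% and 0.339%, with both day 3 libraries below day 0. EdgeR gave -1.72 ± 0.39 (log2 fold change, SE; adjusted p 0.160) and DESeq2 an adjusted p of 0.00219. The windows centred 58 Mb on the higher side and 24 Mb on the lower side were higher at day 3. The former held 0.0446%, 0.0328%, 0.130% and 0.959% (DESeq2 adjusted p 0.00132) and contains the fragment seen in day 3 replicate 2 alone. The latter held 0.156%, 0.135%, 0.355% and 1.14% (DESeq2 adjusted p 0.0269). The window around the viewpoint itself held 49.8%, 49.1%, 34.2% and 43.8%, without overlap between the days and with a log2 fold change of -0.76 ± 0.31 (SE; edgeR adjusted p 0.357).

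The day effect was not found to differ between the 2 lines at single fragments. An interaction term over the 8 libraries called 0 of 1270 fragments, 0% of those tested, while 58 had an unadjusted edgeR p under 0.05, and DESeq2 called 0 too. For the 2 fragments called in the YY1 line the difference in log2 fold change, YY1 minus OctSox, was -1.07 ± 1.05 and -0.43 ± 0.99 (SE; edgeR adjusted p 1.00 each).

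The authors' deposited table for this comparison holds 136 entries without names, 102 of them with an adjusted p. They were placed in order on the 137 fragments whose median count reached 40, less the viewpoint fragment, a match with a correlation of 0.976 between log means. In the authors' deposited table an adjusted p under 0.05 was given to 4 entries, 3.92% of those that have one, and all 4 were higher at day 3. The entry placed on chr17:35752778-35755901 at 112 kb had a log2 fold change of 2.53 ± 0.51 (SE) in the authors' deposited table, with the authors' adjusted p of 8.2e-05. That on chr17:35085339-35101626, 532 kb away on the lower side, had 2.47 ± 0.67 and 0.00753 in the authors' deposited table. Their mean signals there were 0.917 and 0.855 times those computed from the counts. The other 2 entries, with 2.86 ± 0.61 and 2.93 ± 0.86 in the authors' deposited table, matched poorly (0.260 and 2.62 times), so neither is given a position.

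The fragment at 112 kb held 0.160%, 0.112%, 0.554% and 0.748% of the counts outside the viewpoint, with both day 3 libraries above day 0. EdgeR on the deposited counts gave it a log2 fold change of 2.00 ± 0.69 (SE) with an adjusted p of 0.225. For the 2 fragments that edgeR called lower, the entries in the authors' deposited table had log2 fold changes of -0.95 and -0.60, with the authors' adjusted p of 0.232 and 0.517. For these fragments the direction was thus shared, and the calls were not. The most contacted fragment, chr17:35643155-35652106, did not share it, with -0.44 in the authors' deposited table and 0.45 by edgeR.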

How the data were processed

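4C libraries of 2 lines, 3 viewpoints and 2 days were deposited, and 4 were used here, with 4 of the OctSox line for comparison. The aligner Bowtie and the mouse build mm9 are named in the submitters' processing notes. The Bowtie version is not given in the sources used here, nor is how reads were filtered and counted. The authors deposited raw counts per HindIII fragment of chromosome 17 and a list of fragment positions in the same order. The authors also deposited a table of their own day comparison, which per the file headers gives each entry's mean signal, its log2 fold change and standard error, the score of the test, and a p-value before and after adjustment. Its log2 fold change is day 0 over day 3, found by setting it against the counts (correlation of -0.864 with the change computed from them), and its sign was turned here. Leaving out the viewpoint's higher neighbour in place of the viewpoint fragment matched its means a little less well (correlation of 0.961).

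Coordinates are mm9, 1-based, as deposited. Tests and shares by distance leave out the viewpoint fragment and the fragments next to it. After filterByExpr (minimum count 10), fragments and windows went into edgeR 4.0.16, run in R 4.3.3 (TMM factors on the sums of kept features, glmQLFit and glmQLFTest on day alone) with Benjamini-Hochberg adjustment at 0.05, and DESeq2 1.42.0 was an alternative. Differences in shares were tested by permuting library labels (exact, two-sided). A p-value measures the spread between the libraries labelled as biological replicates only. The edgeR script was tested on simulated counts. Shares, permutations and plots were made in Python 3.11.15 with scipy 1.17.1, numpy 2.4.6, matplotlib 3.10.9 and pandas 2.3.3.

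The comparison, the fragments and the alternatives were chosen with earlier results of these data known. Named are the viewpoint fragment and its neighbours, the 12 most contacted fragments, all called fragments, the 5 of smallest p among the rest, the 3 most contacted beyond 1, 5 and 20 Mb, and the windows called or of the 3 smallest p. The fragments at 110, 112, 260 and 532 kb, adjoining pairs, runs without counts, steps within 1 Mb, the spread of far counts and the comparison of bands with the OctSox line were added after seeing the data. Alternatives were other scalings, filters and window sizes, a replicate block, a distance trend, the fragments left out at the viewpoint, fragments or capped counts in place of counts, and leaving out each library. An mm9 genome and annotation were not used here, so no gene or sequence is given for a fragment.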

Additional observations from a re-analysis of the deposited data

How the results depend on the processing

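Which fragments were called depended on the processing. In place of 2 falls, edgeR called 1 fragment with DESeq2's size factors, 0 when scaled by total count, 0 of 12754 without the filter on low counts, 0 with a minimum count of 20, 0 with the distance trend removed and 1 with the replicate block. DESeq2 called 4, all higher at day 3 and all tested only through their day 3 counts. With nothing left out at the viewpoint edgeR called 2, both higher. Leaving out 1 library gave between 1 and 112 calls: 112 (41 higher) without day 3 replicate 1, 13 (6 higher) without day 3 replicate 2 and 1 without either day 0 library. Among 12 alternatives the fragment from 35666366 passed in 6 and that from 35671799 in 2, and both kept fold changes below 0 in all 12. For 100 kb windows the count of calls was 2 in place of 0 without the filter and between 0 and 6 with 1 library left out, the 6 without day 3 replicate 2. For 1 Mb windows it was 3 with DESeq2, 2 with the replicate block and between 0 and 34 with 1 library left out, 34 without day 3 replicate 1 and 7 without day 3 replicate 2. Scaling by total count moved the median log2 fold change from -0.16 to 0.26 for 100 kb windows and from -0.02 to 0.42 for 1 Mb windows, and the number of values above 0 from 273 to 386 of 631 and from 45 to 76 of 93. For the difference between the lines the count was between 0 and 1 with 1 library left out, the 1 without OctSox day 0 replicate 1.

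Whether same-numbered libraries of the 2 days belong together was not established. Over the tested fragments their deviations correlated at 0.096 across the days, which cannot settle it in libraries of such unequal depth. With 2 pairs nothing further can be read from the replicate block.

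The band changes turned sign under several alternatives. Of these, fragments in place of counts and capped counts also depend on library depth, which was unequal. Up to 0.1 Mb the change was 27.1 points with nothing left out at the viewpoint, 0.970 with fragments in place of counts, 2.59 with counts capped at 20, and between -8.71 (without day 3 replicate 2) and 3.06 (without day 3 replicate 1) with 1 library left out. At 0.1 to 1 Mb it was 4.18 with fragments in place of counts and 7.61 with capped counts. At 5 to 20 Mb it was -7.33 with nothing left out, -3.78 with fragments, -8.54 with capped counts and between -1.90 and 4.42 with 1 library left out. Beyond 20 Mb, against 9.94, it was -0.366 with fragments in place of counts, 1.36 with capped counts, 0.646 with nothing left out at the viewpoint and between 8.81 and 11.1 with 1 library left out. The change in the lower side's share within 1 Mb was 0.906 with 3 neighbours left out and between -7.89 and 6.93 with 1 library left out. Within 0.1 Mb it was -0.202 with nothing left out, -2.44 with fragments, -10.7 with capped counts and between -0.102 and 0.163 with 1 library left out.

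Among the named fragments, log2 fold changes that turned sign were all of fragments that did not pass. That from 35643155 had -0.58 without the filter and between -0.59 and 0.22 with 1 library left out. That from 35659421 had 0.012 with DESeq2's size factors or with DESeq2, 0.14 with total counts, 0.15 with a minimum of 20, 0.47 with the trend removed and between -1.49 and 0.26 with 1 library left out. Those from 35782941 and 35814628 had 0.10 and 0.12 with total counts, 0.039 and 0.078 with a minimum of 20, and 0.85 and 0.93 with the trend removed. Those from 35684940 and 35798798 had 0.19 and 0.30 with the trend removed. That from 25840881 had between -0.91 and 3.94 with 1 library left out. The cause of these changes was not tested. Of the 4 libraries day 3 replicate 2 was the shallowest, and its 7090 counts limit what can be read from single far fragments.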

Other observations

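Adjoining fragments share a HindIII site. In 12 of 103 pairs of adjoining tested fragments within 1 Mb the edgeR log2 fold changes differed by more than 2. Over all distances this was so in 31 of 185 pairs, so such pairs were not particular to the region near the viewpoint. The fragment chr17:35750782-35752771, 110 kb away on the higher side, held 0.964%, 1.00%, 0.416% and 0.423% of the counts outside the viewpoint, while the adjoining chr17:35752778-35755901 held 0.160%, 0.112%, 0.554% and 0.748%. Neither overlapped between days, and their log2 fold changes were -1.43 ± 0.48 and 2.00 ± 0.69 (SE; edgeR adjusted p 0.221 and 0.225). Summed, the pair held 1.12%, 1.11%, 0.969% and 1.17%, which overlaps between days. A second such pair lies 260 kb away on the lower side. There chr17:35370033-35371608 held 0.433%, 0.536%, 0.237% and 0.0564%, and the adjoining fragment from 35371615 held 0.141%, 0.0574%, 0.569% and 0.212%. Both pairs were picked after their values were seen, no fragment in them passed the test, and the cause was not tested.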
